A study of Mus musculus with 10 samples.

Results

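The PARP family genes Parp8, Parp9, Parp10, Parp11, Parp12 and Parp14 were examined together with Dtx3l, the ubiquitin ligase partner of PARP9. The DNA-repair genes Parp1 and Parp2 served as comparators. The 9 genes were chosen by symbol, and all 9 were found among the 56980 genes of the deposited table and passed the filter on low counts. RNA-seq counts came from macrophages of mice in 2 genotypes, WT for the junctional adhesion molecule-like gene Jaml or deficient for it (KO), with 5 libraries each. The titles call the deficient group JAMLMKO, while its genotype tag reads JAML Knockdown. No Cre line, sex or age is given. Every library came from stimulated cells. Lipopolysaccharide (LPS), which bacteria carry and TLR4 senses, was present at 100 ng/ml over 8 h, and 5 mM ATP followed over 30 min. Stimulation is thus shared by both genotypes, and unstimulated cells were not analysed here. The KO columns are headed SI in the table, a heading that no label explains, and are read here as KO by elimination, since WT columns carry their own name. Every direction below rests on that reading.

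PARP enzymes transfer ADP-ribose from NAD onto proteins or nucleic acids. PARP1 and PARP2 build chains of ADP-ribose at DNA breaks, whereas most other family members attach single units. Several genes of the family belong to the interferon response. Type I interferon signals from its receptor through kinases such as TYK2 to transcription factors such as STAT2 and IRF9. Genes such as Parp9, Parp10, Parp12 and Parp14 are among the known targets of this response. In macrophages LPS induces this programme through TLR4.

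Promoter sequences from RefSeq on GRCm38.p6 span 250 bases before to 50 after a start site. The table used here matched 6 of the 9 genes, with 7 start sites, and Parp9, Parp10 and Parp14 had no entry. Motifs of interferon signalling were searched on both strands. The first was TTTC followed, after 2 bases of any kind, by TTTC again, the core of the interferon-stimulated response element, and the second was TTCNNNGAA, the palindrome of the gamma-activated site. Of 32851 promoters of this length, 3.44% held the first, 8.30% the second and 0.454% both. Among the 6 genes with an entry only the upstream start of Parp11 held either motif, and it held both, in matches that overlap. The sequences shown are those of the gene with the largest fall (Parp11, both starts), of Dtx3l, whose window also holds Parp9 starts, and of Parp4, the other family member with the first motif. Capitals mark the matches.
Parp11, upstream start, plus strand, chr6:127446590-127446889: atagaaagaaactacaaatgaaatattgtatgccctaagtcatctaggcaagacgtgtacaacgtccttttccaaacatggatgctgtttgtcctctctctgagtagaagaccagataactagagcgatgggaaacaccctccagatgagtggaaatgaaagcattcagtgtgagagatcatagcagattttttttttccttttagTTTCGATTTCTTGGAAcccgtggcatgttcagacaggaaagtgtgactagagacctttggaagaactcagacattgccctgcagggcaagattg
Parp11, downstream start, plus strand, chr6:127453377-127453676: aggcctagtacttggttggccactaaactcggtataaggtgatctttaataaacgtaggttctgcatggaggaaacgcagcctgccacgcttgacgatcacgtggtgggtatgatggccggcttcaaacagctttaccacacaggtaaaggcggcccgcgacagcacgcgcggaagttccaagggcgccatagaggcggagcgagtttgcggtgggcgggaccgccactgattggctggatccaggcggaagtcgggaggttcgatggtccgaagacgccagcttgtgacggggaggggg
Dtx3l, minus strand, chr16:35938978-35939277: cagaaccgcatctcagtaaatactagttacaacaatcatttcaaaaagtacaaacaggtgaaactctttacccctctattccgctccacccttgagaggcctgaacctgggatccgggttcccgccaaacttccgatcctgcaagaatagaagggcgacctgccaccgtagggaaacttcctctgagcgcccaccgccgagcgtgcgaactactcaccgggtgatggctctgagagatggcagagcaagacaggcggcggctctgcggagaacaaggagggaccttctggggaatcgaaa
Parp4, plus strand, chr14:56575369-56575668: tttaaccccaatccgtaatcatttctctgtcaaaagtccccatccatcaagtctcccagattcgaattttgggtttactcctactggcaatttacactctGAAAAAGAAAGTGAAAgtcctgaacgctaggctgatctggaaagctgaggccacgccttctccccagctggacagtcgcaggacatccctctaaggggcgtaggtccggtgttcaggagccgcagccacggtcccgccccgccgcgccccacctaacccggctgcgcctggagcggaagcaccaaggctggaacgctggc
In Parp11 the first motif began 44 bases before the upstream start and read TTTCGATTTC, and the second began 37 bases before it and read TTCTTGGAA. That window had a GC content of 42.0% with 5 CpG, against 59.0% with 25 CpG at the downstream start. Gene-level counts do not show which start was used. In Parp4 the first motif matched at 150 and 144 bases before the start, in overlapping copies on the opposite strand. In the GENCODE vM21 annotation of GRCm38, Dtx3l lies on the minus and Parp9 on the plus strand, and 4 of the 7 annotated Parp9 transcripts start inside the Dtx3l window. A match describes letters only, and no match says only that these letters are not in this window.

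Libraries held 19319512 to 22766319 counts. Levels are CPM, counts scaled by library total and TMM factor, which ranged from 0.948 to 0.969 in WT and from 1.02 to 1.07 in KO. Differences were tested with edgeR's quasi-likelihood test over 14436 genes, called at a Benjamini-Hochberg adjusted p under 0.05. The test called 29.1% of genes, 15.0% lower and 14.1% higher in KO (2164 and 2036 genes), and with library totals in place of TMM 1361 and 4231 genes, as the median log2 fold change over all genes moved from 0.01 to 0.12. Jaml itself had 2 counts in WT 1, 2 in KO 4 and 0 in the other 8 libraries, so the deletion cannot be checked from these counts. Macrophage markers were abundant in both genotypes (summed CPM 22987 to 24439 in WT, 21942 to 23961 in KO). Of these 7 markers 2 were lower and 1 higher (42.9% called, against 29.1% of all genes). Separate mice or cultures are not stated for the libraries. The spread behind each p-value is that between libraries and may be technical.

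Dtx3l and the 6 PARP genes examined with it were all lower in KO, Parp1 was higher, and no difference passed the test for Parp2. Of the 9 genes 8 were called, 7 lower and 1 higher, where 29.1% of all genes tested were called, 15.0% lower and 14.1% higher. The median log2 fold change of the 7 was -0.83, against 0.01 over all genes. The falls ranged from 1.30-fold for Parp8 to 2.19-fold for Parp11. For each of the 7 genes that fell, all 5 KO values lay below all 5 WT values, as they did for 12.4% of genes tested. In these bulk samples, fewer cells expressing a gene and less RNA per cell cannot be told apart.

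Parp14 carries macrodomains that bind ADP-ribose and had the highest level per kilobase of the set in WT. It lies on chromosome 16 (ENSMUSG00000034422, 35653244 to 35691914, coordinates as the table lists them). Its level was 1254, 1283, 1276, 1317 and 1322 CPM in WT 1 to 5 and 609, 690.2, 581, 719 and 529 CPM in KO 1 to 5. The WT libraries lay close together, and the highest KO library stood far below the lowest WT library. The level fell 2.06-fold, a log2 fold change of -1.04 ± 0.07 (estimate ± SE, as below; edgeR adjusted p = 1.24e-06).

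Dtx3l, an E3 ubiquitin ligase that works in a complex with PARP9, lies on the same chromosome (ENSMUSG00000049502, 35746881 to 35759521). It had 244, 248, 244, 252 and 266 CPM in WT and 135, 156, 131, 158 and 128 CPM in KO. KO 2 and KO 4 were the highest of the KO libraries, as for Parp14, and the groups did not overlap. The fall was 1.77-fold (log2 fold change -0.83 ± 0.06, edgeR adjusted p = 2.28e-06).

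Parp9 also carries macrodomains and overlaps Dtx3l head to head (ENSMUSG00000022906, 35758840 to 35792975). It had 163, 149, 160.0, 162 and 178 CPM in WT and 118, 121, 105, 113 and 99.1 CPM in KO. The groups did not overlap, but the gap was narrower than for its neighbours. The fall was 1.46-fold (log2 fold change -0.54 ± 0.06, edgeR adjusted p = 5.34e-05). The listed intervals of Parp9 and Dtx3l share 682 bases, and since no strand setting is given, reads from that stretch cannot be assigned to either gene with certainty.

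Parp12 has CCCH zinc fingers that bind RNA, and its product restricts several viruses (ENSMUSG00000038507, chromosome 6, 39063344 to 39095283). It had 431, 434, 449.5, 402 and 451 CPM in WT and 235, 263, 215, 267 and 172 CPM in KO. KO 5 was well below the other KO libraries, and no KO value reached the WT range. The fall was 1.88-fold (log2 fold change -0.91 ± 0.10, edgeR adjusted p = 4.09e-05). Without KO 5 the log2 fold change was -0.82 ± 0.07.

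Parp11, a mono-ADP-ribosyltransferase reported to act on interferon receptor turnover, showed the largest fold of the 9 (ENSMUSG00000037997, chromosome 6, 127423803 to 127471224). It had 86.5, 80.7, 89.2, 93.0 and 97.7 CPM in WT and 40.8, 47.3, 37.5, 45.0 and 33.7 CPM in KO. Each KO value was well under the lowest WT value. The fall was 2.19-fold (log2 fold change -1.13 ± 0.09, edgeR adjusted p = 2.67e-06). Its interval from -1.32 to -0.94 overlapped that of Parp14 (-1.21 to -0.88), so the order of these 2 folds is not resolved.

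Parp10, a mono-ADP-ribosyltransferase with RNA-recognition and ubiquitin-binding motifs, lies on chromosome 15 (ENSMUSG00000063268, 76115374 to 76127641). It had 124, 126, 128, 114 and 138 CPM in WT and 78.6, 83.4, 66.4, 88.8 and 70.3 CPM in KO. The groups did not overlap, with KO 3 lowest and KO 4 highest among the KO libraries. The fall was 1.62-fold (log2 fold change -0.70 ± 0.08, edgeR adjusted p = 4.75e-05). Its interval shares 1401 bases with Plec, the gene of the cytoskeletal linker plectin, on the same strand in GENCODE vM21. Plec had a mean of 11806 counts in WT and 10939 in KO, and reads of the shared stretch cannot be told apart even with strand.

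Parp8, the least studied of the mono-ADP-ribosyl enzymes here, moved least (ENSMUSG00000021725, chromosome 13, 116991356 to 117162073). It had 51.0, 49.0, 47.6, 52.3 and 48.7 CPM in WT and 35.0, 40.7, 36.7, 40.1 and 39.2 CPM in KO. All KO values were lower than all WT values, with KO 1 the lowest. The fall was 1.30-fold (log2 fold change -0.37 ± 0.05, edgeR adjusted p = 0.000168), and -0.26 ± 0.05 with library totals.

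Parp1, the main sensor of DNA strand breaks in the family, went the other way (ENSMUSG00000026496, chromosome 1, 180396489 to 180428819). It had 75.5, 73.7, 70.9, 72.8 and 74.1 CPM in WT and 84.6, 89.4, 92.3, 90.8 and 91.1 CPM in KO. All KO values exceeded all WT values, as for 10.9% of genes tested. The rise was 1.22-fold (log2 fold change 0.29 ± 0.04, edgeR adjusted p = 9.17e-05).

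Parp2, which acts beside PARP1 at breaks, had 17.1, 19.6, 19.7, 18.4 and 19.0 CPM in WT and 19.9, 18.6, 16.9, 19.3 and 17.4 CPM in KO (ENSMUSG00000036023, chromosome 14, 51045298 to 51058758). The groups overlapped almost fully. The log2 fold change was -0.03 ± 0.06, with a 95% interval from -0.16 to 0.11 (edgeR adjusted p = 0.798), and 0.09 ± 0.06 with library totals. With TMM, that interval does not reach the estimate of any other gene of the set.

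Levels of different genes were compared per kilobase of the gene length recovered from the deposited FPKM, as CPM per kb. For some genes this length exceeded the listed interval, as for Parp3 (7396 bases, listed from 106347521 to 106354148). It is therefore not the length of a single spliced transcript. The order of genes, the size of ratios between genes and the family shares rest on it. Fold changes and KO minus WT differences of log2 ratios do not. In WT the order was Parp14 (113 ± 2.51), Parp12 (102 ± 4.66), Dtx3l (34.6 ± 1.23), Parp9 (26.3 ± 1.68), Parp10 (17.3 ± 1.19), Parp1 (9.96 ± 0.229), Parp11 (6.96 ± 0.502), Parp8 (4.73 ± 0.182) and Parp2 (3.26 ± 0.182; mean ± SD, n = 5). No 2 neighbours in this order overlapped across the WT libraries. In KO several neighbours closed up. Parp14 (54.9 ± 6.85) and Parp12 (54.3 ± 9.19) no longer separated, with Parp14 higher in 3 of 5 libraries, and Dtx3l (19.5 ± 1.96) exceeded Parp9 (18.0 ± 1.48) in 4 of 5. Parp1 (12.2 ± 0.405) now stood above Parp10 (10.7 ± 1.27) in 5 of 5 libraries, although the ranges touched. Parp8 (3.65 ± 0.229), Parp2 (3.20 ± 0.222) and Parp11 (3.18 ± 0.428) overlapped at the bottom of the KO order.

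**Figure D1:**
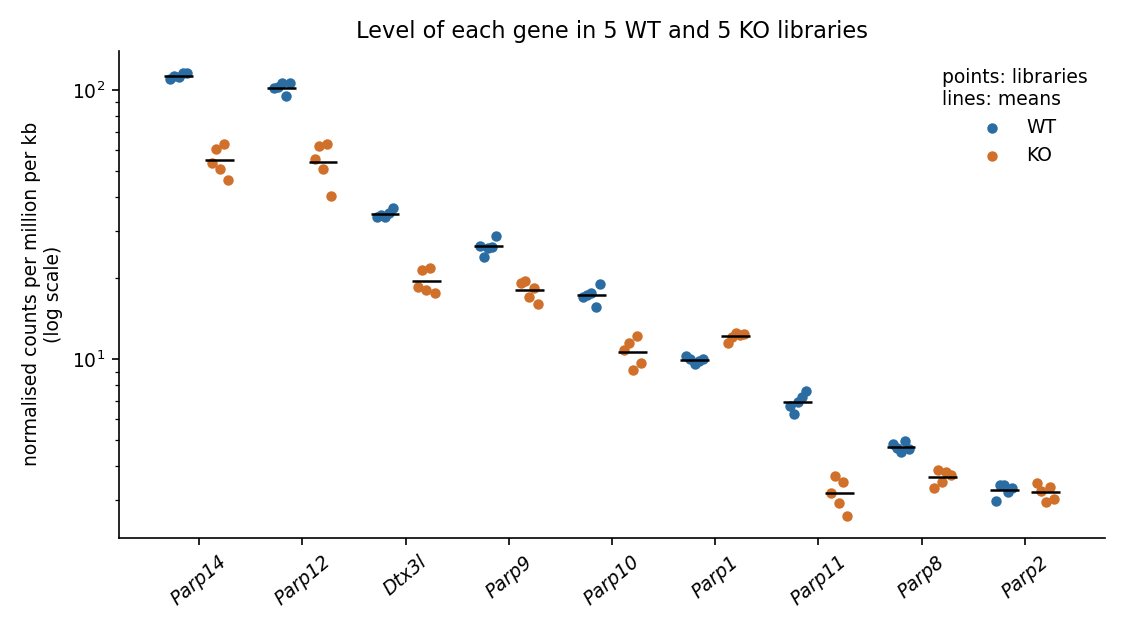
Level of each of the 9 genes in CPM per kb (log scale), with 1 point per library, WT in blue and KO in orange, and lines at the group means. Parp14 and Parp12 lead in both genotypes, the KO points of 7 genes lie below their WT points, those of Parp1 lie above and those of Parp2 overlap.

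Ratios within a library do not depend on the scaling between libraries, and 4 were tested on per-kb levels (exact two-sided permutation test over libraries, smallest p possible 0.00794, Benjamini-Hochberg adjusted over 4 ratios). Parp9 stood to Dtx3l at 0.759 ± 0.0337 in WT, against 0.928 ± 0.0673 in KO (mean ± SD, 5 libraries each). The log2 ratio rose by 0.29 (exact p = 0.00794, adjusted 0.0106), so Parp9 fell by a smaller factor than Dtx3l. The ratio in KO ran from 0.845 in KO 4 to 1.03 in KO 1, and in WT from 0.703 to 0.786.

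Parp14 stood to Parp9 at 4.32 ± 0.246 in WT and 3.04 ± 0.246 in KO, and the log2 ratio fell by 0.51 (exact p = 0.00794, adjusted 0.0106). Against Dtx3l, Parp14 went from 3.27 ± 0.0650 to 2.81 ± 0.101, a log2 ratio that fell by 0.22 (exact p = 0.00794, adjusted 0.0106). Among the 3 genes on chromosome 16, Parp14 thus had the largest and Parp9 the smallest fall, and all 3 steps exceeded the spread between libraries. The ratio of Parp1 to Parp2 went from 3.06 ± 0.236 to 3.82 ± 0.371, with WT 1 at 3.44 above KO 1 at 3.32. Its log2 value rose by 0.32 (exact p = 0.0159, adjusted 0.0159).

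**Figure D2:**
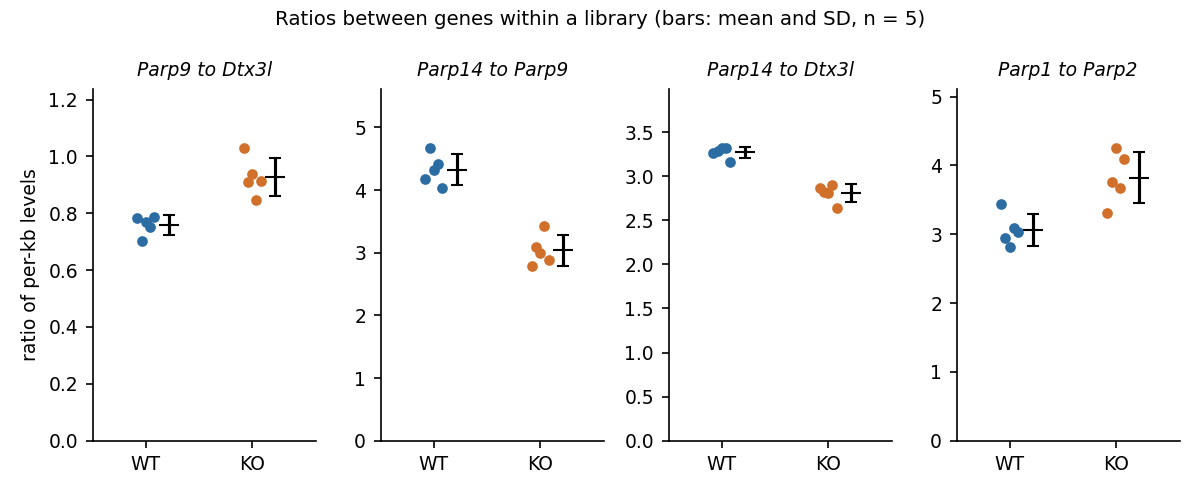
Ratios of per-kb levels within each library for 4 gene pairs, with 1 point per library and bars for mean and SD (n = 5). Groups separate for the 3 pairs on chromosome 16, while WT 1 (3.44) and KO 1 (3.32) cross for Parp1 to Parp2.

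Neighbouring genes on chromosome 16 were listed by position, up to 200 kb beyond the 3 genes. Of the protein-coding neighbours that were tested, Slc49a4, a transporter gene, had a log2 fold change of 0.01 ± 0.05, Hspbap1 of 0.00 ± 0.08 and Kpna1, an importin gene, of 0.15 ± 0.37. Wdr5b had 0.15 ± 0.11 and Ccdc58 0.20 ± 0.10, and none of these 5 passed (edgeR adjusted p from 0.170 to 0.997). Kpna1 stood at 72.6 to 75.7 CPM in WT 4, KO 2 and KO 4 and at 24.8 to 35.5 CPM in the other 7 libraries. Fam162a rose by 0.47 ± 0.11 (adjusted p = 0.00909). No tested protein-coding neighbour in this window fell. Gm49730, a transcript model inside the Parp14 interval, fell with it, from 2.16 ± 0.267 to 0.836 ± 0.275 CPM, on the same strand as Parp14. Its mean count was 42.6 in WT and 17.8 in KO. All 1773 bases of its interval are shared with that of Parp14, so its reads cannot be told apart from those of Parp14 even with strand.

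The KO libraries kept a similar order over the genes that fell. KO 5 was the lowest KO library for 5 of the 7, and KO 4 or KO 2 the highest for all 7. Summed over the 7 genes, KO 1 to 5 had 1252, 1401, 1173, 1430.4 and 1071 CPM, against 2353 to 2501 CPM in the WT libraries. Relative to the WT mean, Parp14 was at 47.2, 53.5, 45.0, 55.7 and 41.0% in KO 1 to 5 and Parp12 at 54.2, 60.6, 49.7, 61.6 and 39.6%. The coefficient of variation was larger in KO than in WT for all 7 genes (6.28 to 16.9% against 2.22 to 7.22%). Stat2 showed the same extremes, at 38.9% in KO 5 and 52.3% in both KO 2 and KO 4. So did Irf7 (33.3% in KO 5 and 52.0% in KO 4), which was named after its values were seen. Usp18 was likewise lowest in KO 5 (24.6%) and highest in KO 2 (42.1%). Not all interferon signalling genes showed these extremes: Irf9 was lowest in KO 1 (74.2%) with KO 5 at 85.1%. The part of KO 5 in the group differences is measured directly: without it all 7 genes remained lower, by log2 fold changes between -1.07 and -0.38.

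**Figure D3:**
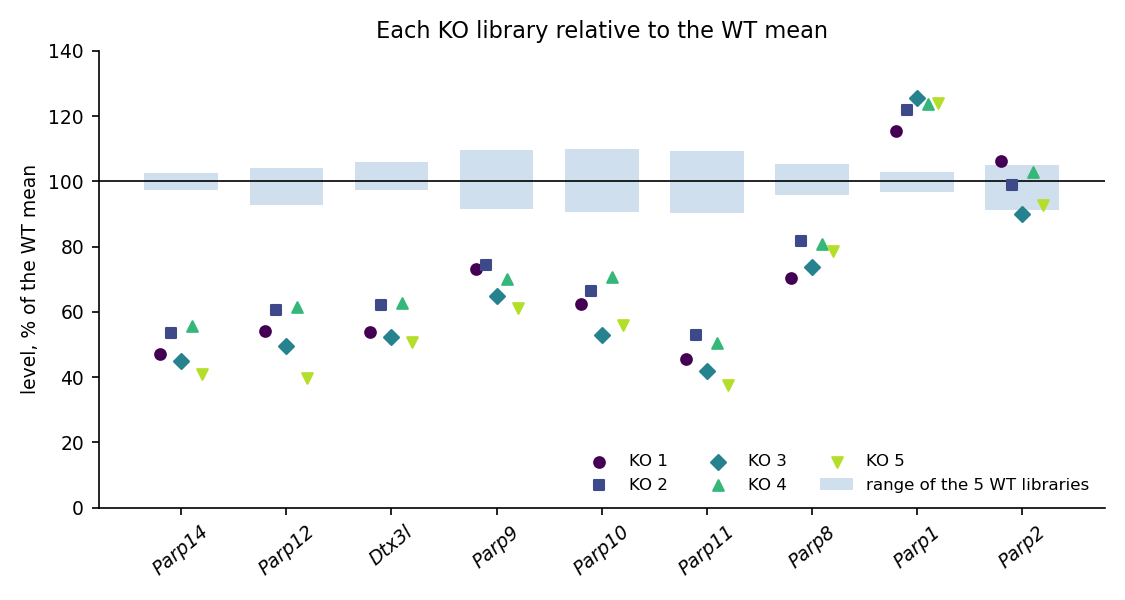
Level of each gene in the 5 KO libraries as a percentage of the WT mean, with a symbol per library, and the range of the 5 WT libraries as a pale bar. KO 5 is lowest for 5 of the first 7 genes, KO 2 or KO 4 is highest, and Parp1 lies between 115 and 126%.

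Of the 8 other PARP family genes, all tested, 6 fell and none rose (75% lower, against 15.0% of all genes), with a median log2 fold change of -0.20. Zc3hav1, the antiviral zinc-finger protein that lacks enzyme activity, went from 297 ± 20.2 to 228 ± 20.7 CPM (log2 fold change -0.38 ± 0.07, edgeR adjusted p = 0.00114). Parp4, found in vault particles, fell by 0.33 ± 0.06 and the tankyrase gene Tnks2 by 0.22 ± 0.03. Tiparp, a target of the aryl hydrocarbon receptor, fell by 0.19 ± 0.05, Parp3, a DNA-break enzyme, by 0.23 ± 0.07 and Tnks by 0.17 ± 0.06. The last 3 calls were not firm: with library totals they had adjusted p of 0.328, 0.203 and 0.402 in edgeR, and 3 of the 8 genes were then lower. Each also lost its call without single libraries: Tiparp without WT 1 or WT 4 (0.0526 and 0.0548), Parp3 without WT 1, 3, 4 or 5 or KO 1 or 5 (0.0592 to 0.0869), and Tnks without WT 2 to 5 or KO 1 to 4 (0.0503 to 0.116). Parp6 had -0.13 ± 0.08 and Parp16, an enzyme of the endoplasmic reticulum, 0.04 ± 0.08, and neither passed. Zc3hav1 and Parp8, the member with the smallest fall, had log2 fold changes of -0.38 and -0.37, and the members and the other family genes were not tested against each other.

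**Figure D4:**
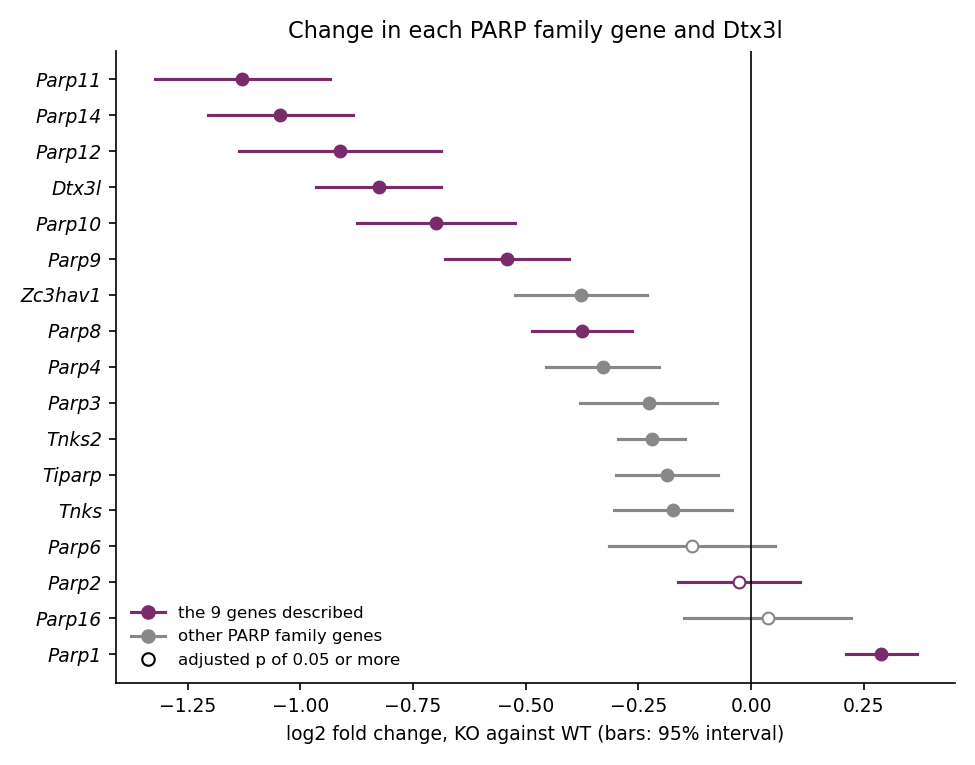
Log2 fold change of the 9 genes (purple) and the other 8 PARP family genes (grey), KO against WT with TMM scaling, with 95% intervals and filled symbols for an adjusted p under 0.05. Parp11 at -1.13 and Parp14 at -1.04 lie farthest to the left, and Parp1 at 0.29 is the member above 0.

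Over the 16 PARP genes of both lists, without Dtx3l, the summed level was 374 ± 9.62 CPM per kb in WT, against 234 ± 21.1 in KO (mean ± SD, 5 libraries each). Parp14 held 30.3 ± 0.754% of that sum in WT and 23.4 ± 0.878% in KO, and Parp12 27.4 ± 0.943% and 23.1 ± 2.16%. The share of Zc3hav1 was 10.2 ± 0.433% in WT and 12.5 ± 1.11% in KO, although its own level fell. Parp1 held 2.67 ± 0.0886% in WT and 5.24 ± 0.538% in KO. Parp9 held 7.03 ± 0.311% in WT and 7.73 ± 0.410% in KO, and Parp10 4.64 ± 0.223% and 4.56 ± 0.228%. The sum and the shares depend on the recovered lengths, and the shares were not tested.

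**Figure D5:**
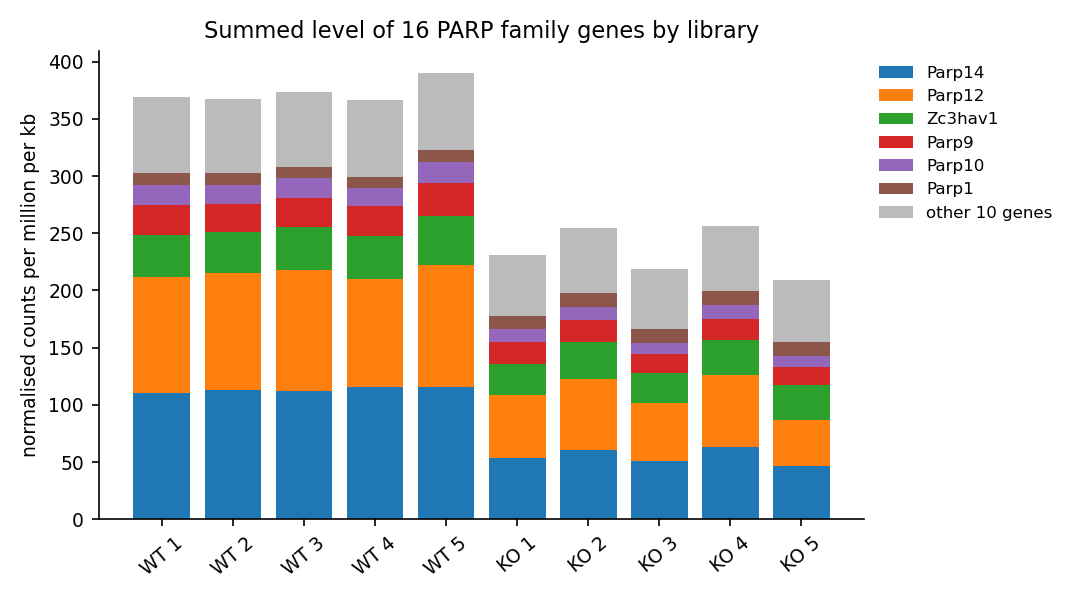
Summed level of 16 PARP family genes in each library, in CPM per kb, stacked by gene. The WT bars average 374 and the KO bars 234, with the Parp14 and Parp12 segments shrinking most.

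Of 7 tested genes that remove or bind ADP-ribose, 2 fell and none rose (28.6% lower, against 15.0% of all genes, median log2 fold change -0.07). The share called in either direction, 28.6%, was near the 29.1% of all genes, so the count is read as no result about this list. Adprh, which cleaves ADP-ribose from arginine, fell by 0.21 ± 0.04 and Macroh2a1, a histone variant with a macrodomain, by 0.17 ± 0.04, and neither passed with library totals (edgeR adjusted p = 0.0929 and 0.304). Parg, the main hydrolase of poly-ADP-ribose, had -0.07 ± 0.04, Adprs, a serine ADP-ribose hydrolase, -0.15 ± 0.18, and Macrod1, Macrod2 and Oard1 0.05 ± 0.12, 0.40 ± 0.19 and 0.13 ± 0.10. Macroh2a2 did not pass the filter on low counts.

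Among the other Deltex ligases, Dtx4 rose from 218 ± 3.38 to 277 ± 24.4 CPM (log2 fold change 0.35 ± 0.06, edgeR adjusted p = 0.000552). Dtx2 had 0.02 ± 0.09 and Dtx3 0.19 ± 0.14, with no call, and Dtx1 had at most 2 counts in any library. Dtx3l was thus the member of its family that fell.

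Genes of NAD metabolism, which supply or consume the PARP substrate, gave 2 lower and 3 higher of 13 tested. The share called, 38.5%, was near the 29.1% of all genes, so the count is read as no result about this list. Nampt, the salvage enzyme that sets NAD supply in many cells, went from 632 ± 20.7 to 449.9 ± 23.0 CPM, 1.40-fold lower (edgeR adjusted p = 4.01e-06). Bst1, an NAD-consuming ectoenzyme, rose from 449 ± 6.23 to 627 ± 34.8 CPM, Nnmt, which methylates nicotinamide, by 0.75 ± 0.12 on the log2 scale and the riboside kinase gene Nmrk1 by 0.25 ± 0.07. The second gene that fell, Nmnat1, was named after its value was seen, at -0.29 ± 0.10, and lost its call with library totals (edgeR adjusted p = 0.190), with which 5 genes rose and 1 fell. It kept its call only without WT 1 or KO 1 among single libraries left out, and the other 8 gave 0.0513 to 0.111.

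Interferon signalling genes fell in 10 of 16 tested cases and none rose (62.5% lower, against 15.0% of all genes), with a median log2 fold change of -0.19. The transcription factor genes Stat2 and Irf1 fell by 1.09 ± 0.07 and 1.08 ± 0.08 on the log2 scale, the kinase gene Tyk2 by 0.80 ± 0.05 and Usp18, which removes ISG15 and dampens receptor signalling, by 1.47 ± 0.12. Of the genes named after their values were seen, Irf7 fell by 1.15 ± 0.10 and Irf9 by 0.26 ± 0.06. The receptor genes Ifnar1 and Ifnar2, also named after their values were seen, had 0.06 ± 0.11 and 0.06 ± 0.04, with no call, although Ifnar2 was called higher with library totals (edgeR adjusted p = 0.00472). Ifnb1, which encodes interferon-beta and was named likewise, had at most 2 counts in any library, below a floor of 3 counts (0.129 to 0.160 CPM on the scale used here), and was not detectable at this depth. With library totals 7 genes of this list were lower and 2 higher, under which the whole table moved towards higher calls too.

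Repair genes that work beside PARP1 gave 2 lower and 4 higher of 17 tested (median 0.06). The share called, 35.3%, was near the 29.1% of all genes, with 11.8% lower and 23.5% higher against 15.0 and 14.1%. With library totals 0 were lower and 9 higher, and the whole table had 1361 lower and 4231 higher. Apex1, the abasic-site endonuclease, rose by 0.35 ± 0.05 and the uracil glycosylase gene Ung by 0.46 ± 0.14 on the log2 scale. The polymerase gene Polb fell by 0.31 ± 0.07 and Aptx, which repairs stalled ligation ends, by 0.21 ± 0.06. Chd1l and Nthl1, the other genes that rose, were named after their values were seen, and each lost its call with the DESeq2 Wald test (adjusted p = 0.158 and 0.0763). With single libraries left out, Chd1l lost its call without WT 1 or 5 or KO 1, 2, 4 or 5 (edgeR adjusted p 0.0578 to 0.0948), and Nthl1 without each library other than KO 5 (0.0524 to 0.105). Ung lost its call without KO 4, KO 5, WT 2, WT 4 or WT 5 (edgeR adjusted p from 0.0501 to 0.0682). Hpf1, which directs PARP1 and PARP2 to serine, and the scaffold gene Xrcc1, both named after their values were seen, had 0.06 ± 0.05 and 0.09 ± 0.07, with no call. With library totals both were called higher (edgeR adjusted p = 0.0303 and 0.0403), and the calls of Polb and Aptx were lost (0.0574 and 0.205).

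The genes with the most similar pattern were found by the root mean square difference of log2 CPM over the 10 libraries, each gene centred on its own mean. For Parp14 these were Ifih1, a sensor of viral RNA, at 0.0343 and Stat2 at 0.0369, and for Parp11 Stat2 at 0.0477 and Samhd1 at 0.0546. Parp12 was nearest to Ifi35 (0.0650) and Xaf1 (0.0667), and Parp10 to Ifi207 (0.0716) and Aldh1b1 (0.0760). Dtx3l was nearest to the adenosine receptor gene Adora2a (0.0477) and Rasgrp1 (0.0489), and Parp9 to Ppp2r5a (0.0486) and Tlr6 (0.0525). Parp8 was nearest to Elf4 (0.0372) and Man2a1 (0.0390), Parp1 to Atic (0.0234) and Fh1 (0.0280), and Parp2 to Timm29 (0.0385) and Zfp282 (0.0421). The difference between genotypes makes up much of this likeness, so it is a description of these libraries.

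Markers of other cells were low or mixed. T and NK cell markers summed to 0 to 0.102 CPM in WT and 0 to 0.223 CPM in KO, with Cd3e and Ncr1 at 0, and B cell markers to at most 1.23 CPM. Of 5 dendritic cell markers 2 were tested and neither passed, their sum was 1.66 to 3.08 CPM in WT and 1.31 to 2.41 CPM in KO, and Xcr1 and Siglech were at 0. Of 6 mast cell markers 4 were tested and 3 fell (75% of those tested, against 15.0% of all genes). The 6 summed to 7.26 to 13.1 CPM in WT and 4.22 to 5.20 CPM in KO. Of 8 fibroblast and mesothelial markers 3 rose and 2 fell (62.5% called, against 29.1% of all genes). Their sum, most of it from collagen genes, was 573 to 635 CPM in WT and 596 to 766 CPM in KO. The KO libraries split on 2 mesothelial markers, chosen after their values were seen. Msln was at 8.97 and 11.4 CPM in KO 1 and KO 3, at 0.302 to 1.08 CPM in the other KO libraries and at 5.02 to 9.73 CPM in WT. Krt19 was at 2.30 and 3.17 CPM in KO 1 and KO 3, at 0.196 to 0.258 CPM in the other KO libraries and at 1.39 to 3.31 CPM in WT. With KO 1 and KO 3 left out, Dtx3l and the 6 PARP genes examined with it were still called lower and Parp1 higher. The log2 fold changes were then -1.09 for Parp11, -0.32 for Parp8 and 0.30 for Parp1. Of 6 neutrophil markers 1 was tested and rose, S100a8, where 14.1% of all genes were higher. A count of 1 gene is read as no result about this list. The sum of the 6 was 12.6 to 16.3 CPM in WT and 19.9 to 23.6 CPM in KO. The part of these cells in the PARP differences was not tested.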

How the data were processed

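Whole-number counts per gene and library and FPKM were deposited by the authors, per the file headers, for 10 libraries, 5 WT and 5 KO. The tools named per the submitters' processing notes are TopHat2 2.0.6 and CASAVA 1.8, with the builds mm10 and GRCm39. For the counter, annotation and strand setting, nothing was given in the sources used here. WT FPKM values served only to recover gene lengths, and 5 SI FPKM columns were not used. Counts were tested with edgeR 4.0.16 (R 4.3.3; TMM, filterByExpr with a minimum count of 10, quasi-likelihood F test, Benjamini-Hochberg over 14436 genes), tested on simulated data. Each SE came from dividing the fold change estimate by the root of its F. Alternatives were DESeq2 size factors, library totals, no filter, a stricter filter (50 counts in 5 libraries), a replicate block, each library left out, DESeq2 1.42.0 and limma-voom 3.58.1. No libraries were duplicates (chi-square per gene at least 9.98 within genotypes). Members and lists were chosen with earlier results of these data known. The text names all members and the tested genes of 3 small lists, up to 4 genes by p of each other pathway list, and the 2 nearest genes per member (mean log2 CPM 1 or more); chromosome 16 neighbours are named by position and markers by list, and others are said to be named after their values were seen.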

Additional observations from a re-analysis of the deposited data

Results flagged for a closer look

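In 158 groups of 5 libraries, covering 75 genes above the floor of 3 counts that the text names with values and 4 ratios, the highest or lowest library stood apart from the other 4 in 7 groups; chance gives about 1 in 20. None was a value of the 9 genes or of their ratios. Zc3hav1 was at 333 CPM in WT 5 against 282 to 290.2 CPM in the other WT libraries. Macrod2 was at 0.845 CPM in WT 5 against 0.555 to 0.614 CPM. Dtx3 was at 43.0 CPM in KO 1 against 26.1 to 30.2 CPM in the other KO libraries. Ung was at 4.36 CPM in KO 4 against 2.89 to 3.27 CPM, and Fh1 was at 34.4 CPM in KO 1 against 37.4 to 38.4 CPM. Ifnar1 was at 165 CPM in KO 5 against 114 to 129 CPM in the other KO libraries. Kpna1 was at 75.7 CPM in WT 4 against 29.5 to 35.5 CPM in the other WT libraries.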

How the results depend on the processing

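All 7 lower and 1 higher calls among the 9 genes held under all 19 alternatives, of which 2 (KO 1 left out together with KO 3, or with KO 2, libraries an earlier analysis of these data set apart) were chosen after the data were seen, and Parp2 was called under none. Over the alternatives the log2 fold change ran from -1.10 to -0.93 for Parp14, -1.21 to -1.01 for Parp11, -0.61 to -0.42 for Parp9, -0.40 to -0.26 for Parp8 and 0.28 to 0.40 for Parp1. With library totals 1361 genes were lower and 4231 higher. The counts of the small lists were less stable, and the cause was not tested. With library totals they became 3 lower in the other PARP family, 0 lower in ADP-ribose removal and reading, 1 lower and 5 higher in NAD metabolism, 2 higher in interferon signalling, and 0 lower and 9 higher in repair. Without a filter they were 3 lower in the other PARP family, 1 higher in ADP-ribose removal and 1 lower in NAD metabolism. With the replicate block 1 gene was lower in each of ADP-ribose removal, NAD metabolism and repair. limma-voom gave 1 lower in NAD metabolism and 2 higher in repair, the DESeq2 Wald test 2 higher in repair, and each pair of KO libraries left out 2 higher in repair, with 1 higher in ADP-ribose removal without KO 1 and KO 2. Leaving out each replicate gave 3 to 5 lower in the other PARP family, 0 to 1 higher in ADP-ribose removal, 1 to 2 lower in NAD metabolism, 0 to 1 higher in interferon signalling and 1 to 3 higher in repair. Same-numbered libraries had correlations of deviations from -0.11 to 0.18, and 2 of 5 WT libraries correlated best with their own number. The KO number is that in the column name, by assumption. This check therefore showed no pairing by number and cannot exclude a pairing of the samples. Under the replicate block 2015 genes were lower and 1765 higher, and 7 members lower and 1 higher. An exact sign-flip test over the same pairing cannot go below p = 0.0625. With it the KO minus WT differences of log2 ratios were 0.29 for Parp9 to Dtx3l and -0.51 for Parp14 to Parp9. They were -0.22 for Parp14 to Dtx3l and 0.32 for Parp1 to Parp2. The adjusted p of the sign-flip test was 0.125 for the last pair and 0.0833 for each of the others. Leaving out each library gave differences, in the same order, of 0.25 to 0.32, -0.55 to -0.48, -0.23 to -0.20 and 0.27 to 0.37. All had an exact adjusted p under 0.05 in the permutation test. Parp2, with 345 to 433 counts a library, had the fewest counts of the 9 genes, and the effect of depth was not tested.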
